A study of Camelina sativa with 12 samples.

Results

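Camelina (Camelina sativa) is an oilseed crop of the mustard family and a close relative of Arabidopsis. Its hexaploid genome holds 3 sub-genomes, so that many Arabidopsis genes have up to 3 camelina copies. Plastid proteins encoded in the nucleus, cell-surface proteins, transporters and hormone-related enzymes are made in roots and shoots in very different amounts, and salt in the soil is known to act on both organs of a plant. The genes described here are those whose messenger RNA was low in the shoots of salt-treated plants while it stayed close to the control level in the roots of the same treatment.

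The 12 libraries hold messenger RNA of camelina line DH55 and fall into 4 groups of 3 biological replicates. Salt-treated shoots and salt-treated roots came from plants watered with NaCl at 192 mM (electrical conductivity 15 dSm-1) from day 7 after sowing and harvested 21 days later, at an age of 28 days. These days follow the labels, and the paper's account of its RNA sequencing gives the same age and the same days of salt. A later start of salt is given in the paper's section on plant materials and in its figures of plant growth. Control shoots and control roots came from plants of the same line and age that received tap water. The labels do not say whether a library holds 1 plant or several. The values are CPM, read counts divided by library size, which the authors normalized further and which are whole numbers in the table. They are called CPM scores here. A step of 1 is the smallest difference, and the values are per library size and not per transcript length, so that levels are compared between groups for 1 gene and not between genes.

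The members were selected on group means of these values. A gene was taken when its mean CPM score was at least 5 in control roots and in control shoots, its mean in salt-treated shoots divided by its mean in control shoots was at most 0.333 (3-fold lower or more), and the same ratio in roots lay between 0.67 and 1.5. Of 49932 genes listed, 27688 were at the floor of 5 in both control groups and 19297 of these were within the root limits. The rule found 82 genes. They were 0.296% of the genes at the floor, and 8.79% of the 933 genes at the floor whose shoot ratio was at most 0.333. Of the other genes with such a shoot ratio, 547 were also at or under 0.333 in roots, 296 had a root ratio between 0.333 and 0.67, and 8 had a root ratio above 1.5. The opposite pattern, a root ratio of at most 0.333 with a shoot ratio between 0.67 and 1.5, was met by 102 genes. The shoot ratios, root ratios and floors chose the members, so their salt values are given as a description, without a test.

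**Figure D1:**
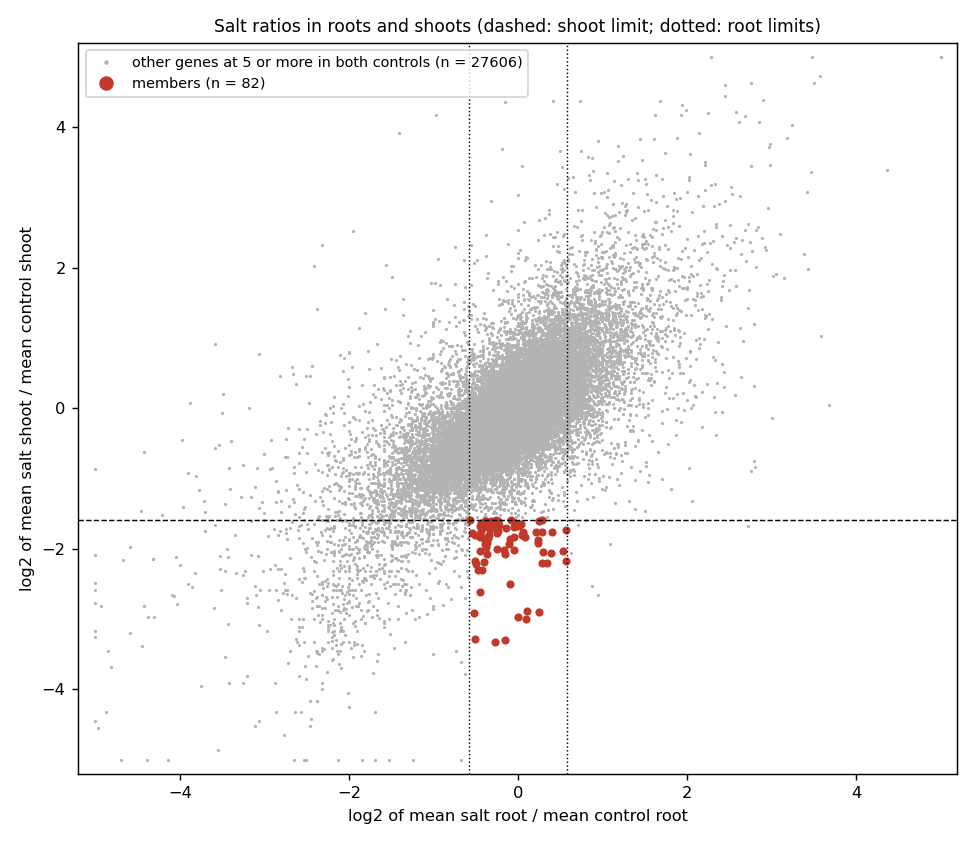
Log2 of the salt to control ratio of group means in roots (x axis) and in shoots (y axis) for the 27688 genes with a mean CPM score of at least 5 in both control groups, with ratios beyond 32-fold drawn at the edge. The 82 members (red) lie below the dashed shoot limit and between the dotted root limits, while most other genes below the dashed line lie to the left, where the root ratio is low as well.

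A name was taken for 50 of the 82 members from the study's annotated list of genes lowered in salt-treated shoots. The study chose that list on these same libraries, so the direction of its genes in shoots is not independent evidence. The list holds 19.6% of the 933 genes at the floor with a shoot ratio of at most 0.333, and 1 of the 547 genes that were as low in roots, so it leaves out genes lowered in both organs, and counts and copies taken from it cover only genes of this kind. Of the 183 listed genes at the floor, 27.3% were members. The remaining 32 members are known only by their identifiers. The named members had shoot ratios of 0.1 to 0.312 (median 0.249), and those without a name had shoot ratios of 0.176 to 0.333 (median 0.319).

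The members lay on all 20 chromosomes, with 24 on sub-genome I, 23 on sub-genome II and 35 on sub-genome III. These are 29.3%, 28.0% and 42.7% of the members, beside 31.9%, 32.2% and 34.9% of the genes at the floor. Chromosome 5 held 12 members, the most of any chromosome. The named members had 37 Arabidopsis orthologues, of which 28 were represented by 1 member, 8 by 2 members and 1 by 3 members. Copies of a gene have similar sequences, and the sources used here do not say how reads that fit several copies were counted, so the split of a signal among copies is uncertain.

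Summed over the 82 genes, the CPM scores of a library came to 1474 to 1816 in salt-treated shoots, against 5723 to 5948 in control shoots. The sums in salt-treated roots were 5998 to 7268, against 6130 to 7415 in control roots. A typical member stood at 0.259, 0.305 and 0.259 times its control mean in salt-treated shoots 1, 2 and 3 (medians over members). In salt-treated roots the same medians were 0.9, 0.862 and 0.857. Salt-treated shoot replicate 2 was strictly the highest of the 3 salt-treated shoots for 42 members, and replicate 1 for 3. Over all genes at the floor, the medians were 0.964 to 0.975 in salt-treated shoots and 0.96 to 0.968 in salt-treated roots.

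**Figure D2:**
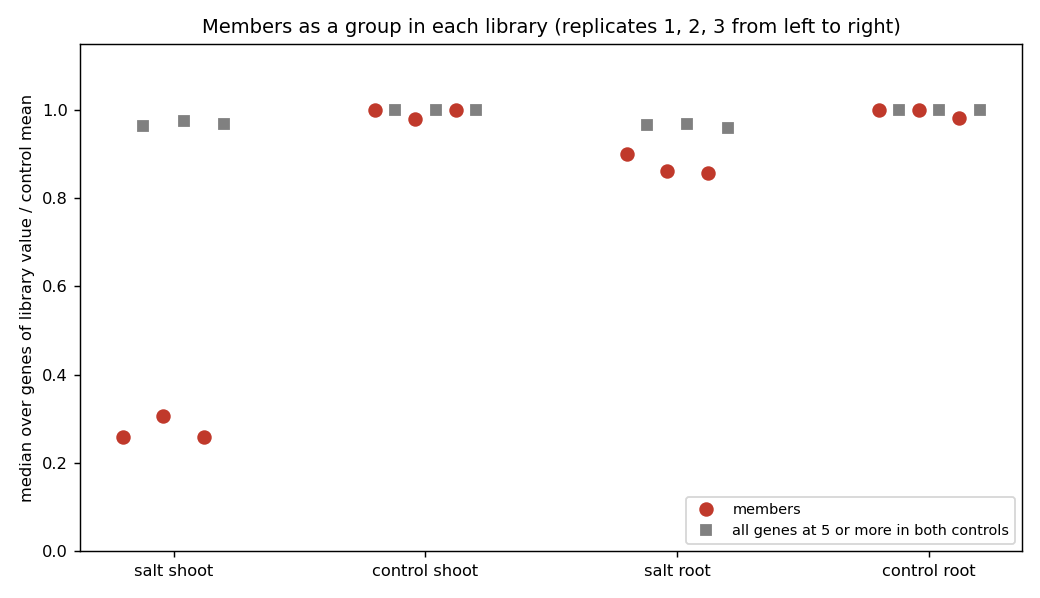
Median over genes of a library's value divided by the gene's control mean in the same organ (y axis), for the 82 members (red circles) and all 27688 genes at the floor (grey squares), with 3 libraries in each group on the x axis. The members stand at 0.259 to 0.305 in salt-treated shoots and at 0.857 to 0.9 in salt-treated roots, and all genes at the floor stand at 0.96 to 0.975 in both.

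All 82 members had each salt-treated shoot below each control shoot, beside 25.8% of all genes tested and 30.6% of the genes at the floor. The rule used this contrast, and nothing is read from that count. Shoot ratios were spread unevenly, with 8 members under 0.15, 2 from 0.15 to 0.2, 16 from 0.2 to 0.25, 26 from 0.25 to 0.3 and 30 at 0.3 or more. Exactly at the limit stood 4 members, among them Csa19g019150, with 5, 8 and 4 in salt-treated shoots against 15, 17 and 19 in control shoots, and Csa20g001870, with 4, 3 and 6 against 15, 12 and 12. Nearest outside were Csa12g020400 with a ratio of 0.337 and Csa14g014180 with 0.341, and 83 genes within the root limits had shoot ratios between 0.333 and 0.4. Salt-treated shoots averaged under 5 for 38 members and under 2.5 for 20. For 28 members a rounding error of 0.5 in each mean would carry the ratio past the limit.

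In roots, "close to the control level" covered a range of ratios from 0.677 to 1.49, with a median of 0.841. A root ratio below 1 was found for 58 members (70.7%), beside 47.3% of the genes within the root limits. A root ratio under 0.8 was found for 34 members (41.5%), beside 17.0% of those genes. Above 1 or at 1 stood 24 members. Each salt-treated root was below each control root for 16 members and above each control root for 1, Csa12g007690, a gene without a name that is given here because it was the only one. Without overlap between salt-treated and control roots were 48.8% of all genes tested and 57.3% of the genes at the floor. No member passed the thresholds described below in roots (16.1% of all genes tested and 11.7% of those at the floor did), and 13 members had an adjusted p of at most 0.05 in the limma fit at any size of change (46.0% of all genes did). The limits on the root ratio set these counts, and nothing is read from them.

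As a check on samples that the choice did not use, the rule was applied to 2 replicate numbers and the ratio was then read in the libraries of the number left out. With replicate 3 left out, the rule chose 78 genes, and the left-out shoot ratio was at most 0.333 for 58 of them (74.4%) and below 1 for 77. With replicate 1 left out, it chose 84 genes, and 65 (77.4%) were at most 0.333. With replicate 2 left out, it chose 115 genes, of which 53 (46.1%) were at most 0.333 and 114 were below 1. Over all genes at the floor, 3.16% to 4.81% had a ratio of at most 0.333 in the same left-out libraries. The left-out root ratio fell within 0.67 to 1.5 for 67.9%, 53.6% and 74.8% of the chosen genes with replicate 3, 1 and 2 left out. Over all genes at the floor the shares were 68.5%, 60.5% and 73.2%. The chosen genes were thus within the root limits about as often as all genes at the floor, or less often. Both the shoot limit and the root limits were met by 40 of 78, 39 of 84 and 38 of 115 genes. With 1 library in each group, and with genes that are not independent, these shares carry no test of the conditions.

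The ratio between roots and shoots of control plants was not set by the rule, which asked only for a floor in both, and this comparison was tested. It shares the control libraries with the rule, and the control means are the divisors of the rule's ratios. A high control shoot value thus makes a low shoot ratio more likely. The shares given beside are of genes not chosen for a low shoot ratio, so these counts do not show a trait particular to the members. In the limma fit over all genes, a gene was called when its p, adjusted by the method of Benjamini and Hochberg, was 0.05 or less and its log2 difference was larger than 1 in either direction, on the scale of log2(score + 0.5). Of the 82 members, 12 (14.6%) were higher in control roots than in control shoots, beside 15.3% of all genes tested and 8.18% of the genes at the floor. Higher in control shoots were 34 members (41.5%), beside 17.0% of all genes tested and 8.3% of the genes at the floor. The remaining 36 were not called in either direction. Libraries of control roots and control shoots did not overlap for 69 members, beside 63.9% of all genes tested and 61.6% of those at the floor. The fitted log2 difference ran from -6.17 to 6.73 with a median of -0.50, beside 0.10 over all genes and 0.11 over the genes at the floor. Scaling every library to the same total moved the median of all genes by 0.29 towards roots, and then 23 members (28.0%, beside 21.0% of all genes tested) were called higher in control roots and 30 (36.6%, beside 14.7%) higher in control shoots. The median of the members minus that of all genes was -0.59 under both scalings.

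**Figure D3:**
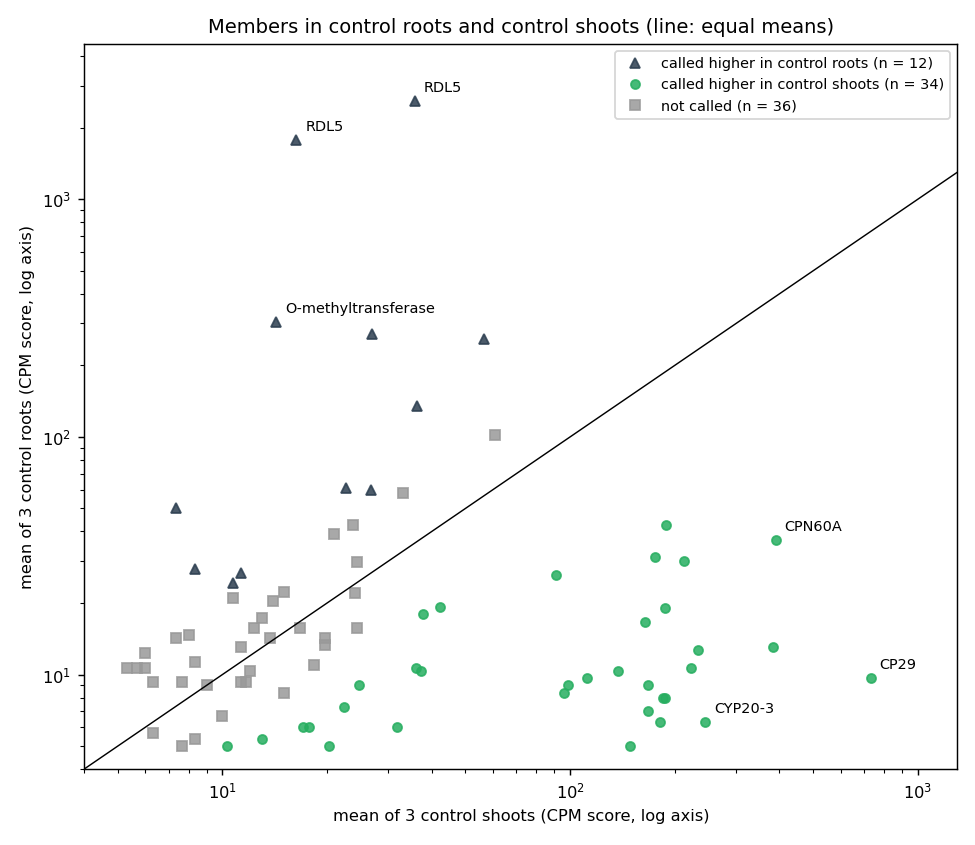
Mean CPM score of the 82 members in control roots (y axis) and control shoots (x axis), both on log axes, each a mean of 3 libraries. The 12 members called higher in control roots (triangles) lie above the line of equal means, up to 2600 for a gene of RDL5, and the 34 called higher in control shoots (circles) lie below it, out to a shoot mean of 731 for CP29.

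The limits of the rule make the ratio of roots to shoots higher with salt in every member, so that the organ values with salt are given only as a description. A higher mean in roots than in shoots was found for 54 members (65.9%) in salt-treated plants and for 33 members (40.2%) in control plants, beside 52.5% and 57.2% of the genes at the floor. The ratio of root mean to shoot mean had a median of 3.19 in salt-treated plants and 0.703 in control plants. For 20 members the mean was higher in roots than in shoots with salt and lower in roots than in shoots without it.

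One group of named members consists of genes of the plastid. Chloroplasts make some of their proteins on their own ribosomes, whose nuclear-encoded subunits, RNA-binding proteins and chaperonins are imported from the cytosol, and root plastids need a smaller amount of the same machinery. The lists for the plastid ribosome, plastid gene expression, protein folding and photosynthesis, with the plastid ribosome recycling factor, gave 11 members. They had shoot ratios of 0.219 to 0.298 and root ratios of 0.733 to 1.16. All 11 were called higher in control shoots than in control roots, with log2 differences (roots minus shoots) of -6.17 to -3.26. ROP interactive partner 3 (Csa05g016770) is in none of these lists and was not counted, although a second name on the study's list calls it chloroplastic-like. It was not called between the control organs (log2 difference -0.13, adjusted p = 0.467 in the limma fit).

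CP29 (Csa09g061830), a chloroplast protein that binds plastid transcripts, stood at 140, 189 and 151 in salt-treated shoots, against 661, 755 and 776 in control shoots. In salt-treated roots it was at 6, 8 and 8, against 9, 10 and 10 in control roots. Each salt-treated library was thus below each control library in both organs, with a shoot ratio of 0.219 and a root ratio of 0.759. The root level in control plants was 1.32% of the shoot level (log2 difference -6.17 ± 0.13 SE, adjusted p = 5.69e-12 in the limma fit).

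CPN60A, the alpha subunit of the chaperonin that folds and assembles the large subunit of rubisco in the chloroplast, was the orthologue with 3 members, 1 on each sub-genome. Csa05g039850 stood at 94, 115 and 98 in salt-treated shoots, against 377, 394 and 400 in control shoots. Csa07g016590 stood at 42, 49 and 45, against 162, 165 and 165, and Csa16g017150 at 41, 49 and 49, against 184, 193 and 188, in the same groups. The shoot ratios of the 3 copies were 0.262, 0.276 and 0.246, which are close to each other. In roots the first copy was at 33, 33 and 36 with salt, against 37, 37 and 36 without it, and the root ratios of the copies were 0.927, 0.94 and 0.895. The root minus shoot log2 differences in control plants were -3.39, -3.26 and -3.28.

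The plastid ribosome was represented by 4 members, all called higher in control shoots. Of 22 plastid ribosomal genes on the study's shoot list, 8 were at the floor in both control groups and 4 were within the root limits. The subunit S10 (Csa19g018450) stood at 65, 71 and 71 in salt-treated shoots, against 222, 224 and 254 in control shoots, and at 18, 12 and 14 in salt-treated roots, against 13, 13 and 12 in control roots. The subunit L13 (Csa16g048190) had shoot means of 53.0 with salt and 181 without it. L18 (Csa17g078950) and L4 (Csa17g010700) had shoot ratios of 0.298 and 0.28, and L4 was at the floor itself, with 3, 4 and 4 in salt-treated roots against 4, 5 and 6 in control roots. The 4 subunits thus differed little in their shoot ratio (0.28 to 0.298) and more in their root ratio (0.733 to 1.16), where a step of 1 is a large share of the value.

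The other plastid members act in folding, carbon fixation and translation. CYP20-3 (Csa07g002580), a peptidyl-prolyl isomerase of the chloroplast stroma, stood at 54, 72 and 57 in salt-treated shoots, against 244, 245 and 243 in control shoots. Ribose 5-phosphate isomerase (Csa15g005780), an enzyme of the Calvin cycle and the pentose phosphate pathway, stood at 28, 43 and 27 in salt-treated shoots, against 142, 129 and 140 in control shoots. The plastid ribosome recycling factor (Csa05g095560), which releases ribosomes at the end of translation, stood at 31, 38 and 26, against 106, 106 and 125. In roots its values were 10, 9 and 9 with salt and 10, 9 and 10 without it. In each of these 3 genes the highest salt-treated shoot was well below the lowest control shoot. The root values of the recycling factor overlapped, as did those of CYP20-3, at 7, 4 and 5 with salt against 7, 6 and 6 without it. Ribose 5-phosphate isomerase was at 6, 9 and 9 in salt-treated roots, against 11, 10 and 10 in control roots. Each salt-treated root of that gene was thus below each control root (ratio 0.774).

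Because these genes are so much higher in shoots, the shoot markers were examined beside their root values. The markers were taken from the paper, which names the 4 shoot markers below as raised in salt-treated roots and the root marker EIR1 as lowered there. Their direction in roots was thus known from these same libraries, and nothing is read from it. The 4 markers (3 rubisco small chains and a chlorophyll-binding protein) summed to 75 to 201 in salt-treated roots and to 12 to 29 in control roots, and to 9646 to 12146 in salt-treated shoots and 18015 to 19831 in control shoots. These sums are mostly rubisco small chain, whose 3 genes had shoot ratios of 0.539 to 0.592. The chlorophyll-binding gene did not fall in shoots, at 78, 117 and 67 with salt, against 52, 61 and 68 without it. It was at 0 in each control root. Rubisco small chains in roots were 0.616% to 2.23% of the shoot level with salt and 0.049% to 0.19% without it. For the 11 plastid members, the root level was 4.58% to 36.7% of the shoot level with salt and 1.32% to 10.2% without it. The part of shoot-derived or photosynthetic RNA in the root values of these members was not tested, and in whole organs fewer cells of a type and less RNA per cell cannot be told apart. Of the root markers, the auxin efflux carrier gene EIR1 (Csa11g090640) stood at 4, 4 and 4 in salt-treated roots, against 11, 13 and 18 in control roots, and at 1 to 2 in all shoots. The other 3 root markers were not analysed here, so that the root markers rest on 1 gene.

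At the other end were members with much higher values in roots than in shoots, whose low shoot values were lower still with salt. Probable cysteine protease RDL5 had 2 members. Csa08g043550 stood at 2, 2 and 1 in salt-treated shoots, against 14, 17 and 18 in control shoots, but at 1664, 1729 and 1420 in salt-treated roots, against 1651, 1913 and 1777 in control roots. Csa13g048470 stood at 12, 8 and 6 in salt-treated shoots, against 30, 38 and 39 in control shoots, and at 3596, 3249 and 2708 in salt-treated roots, against 2217, 3149 and 2430 in control roots. Papain-type proteases such as these cut proteins in vacuoles and outside the cell. The control root levels of the pair exceeded the control shoot levels by log2 differences of 6.73 ± 0.18 and 6.16 ± 0.22 (SE), with adjusted p of 3.28e-11 and 3.86e-10 in the limma fit.

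An O-methyltransferase gene (Csa10g006990) was at 2, 3 and 2 in salt-treated shoots, against 11, 15 and 17 in control shoots. Its roots held 238, 235 and 199 with salt, against 299, 323 and 292 without it, so that the salt-treated roots were all lower although the ratio of 0.735 was within the limits. A defensin-like gene (Csa05g006880), of a family of small cysteine-rich proteins many of which act against microbes, was at 6, 8 and 4 in salt-treated shoots, against 25, 26 and 30 in control shoots. Its salt-treated roots were uneven at 121, 237 and 215, against 272, 238 and 302 in control roots. The log2 differences between control roots and control shoots were 4.38 ± 0.16 and 3.30 ± 0.26 (SE), with adjusted p of 5.33e-10 and 3.95e-07 in the limma fit.

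Also higher in control roots were a gene for a histidine-rich glycoprotein-like protein (Csa05g082040) and an aspartyl protease (Csa08g053740), with log2 differences of 2.19 and 1.91. Csa05g082040 had 13, 15 and 14 in salt-treated shoots, against 51, 51 and 68 in control shoots, and its roots overlapped, at 308, 244 and 200 with salt and 231, 280 and 267 without it. The aspartyl protease had 10, 13 and 9 in salt-treated shoots, against 48, 30 and 31 in control shoots. Its roots held 100, 92 and 86 with salt, against 117, 142 and 147 without it. Each salt-treated root was thus below each control root, with a ratio of 0.685 near the lower limit. In all, 7 of the 12 members called higher in control roots had a name.

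Protein E6-like genes gave the lowest shoot ratio of all members. Csa16g007240 stood at 1, 2 and 2 in salt-treated shoots, against 16, 16 and 18 in control shoots (ratio 0.1), with 10, 16 and 13 in salt-treated roots against 15, 13 and 19 in control roots. The second copy, Csa07g007440, stood at 1, 4 and 2 in salt-treated shoots, against 22, 22 and 24 in control shoots (ratio 0.103). Its roots were at 32, 50 and 46 with salt, against 58, 51 and 73 without it. Each salt-treated root was thus below each control root (ratio 0.703). In the organ comparison the first copy had a log2 difference of -0.10 ± 0.22 (SE) between control roots and control shoots and the second of 1.39 ± 0.32, of which only the second was called (adjusted p = 0.714 and 0.0025 in the limma fit). The difference between the copies was not itself tested.

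**Figure D4:**
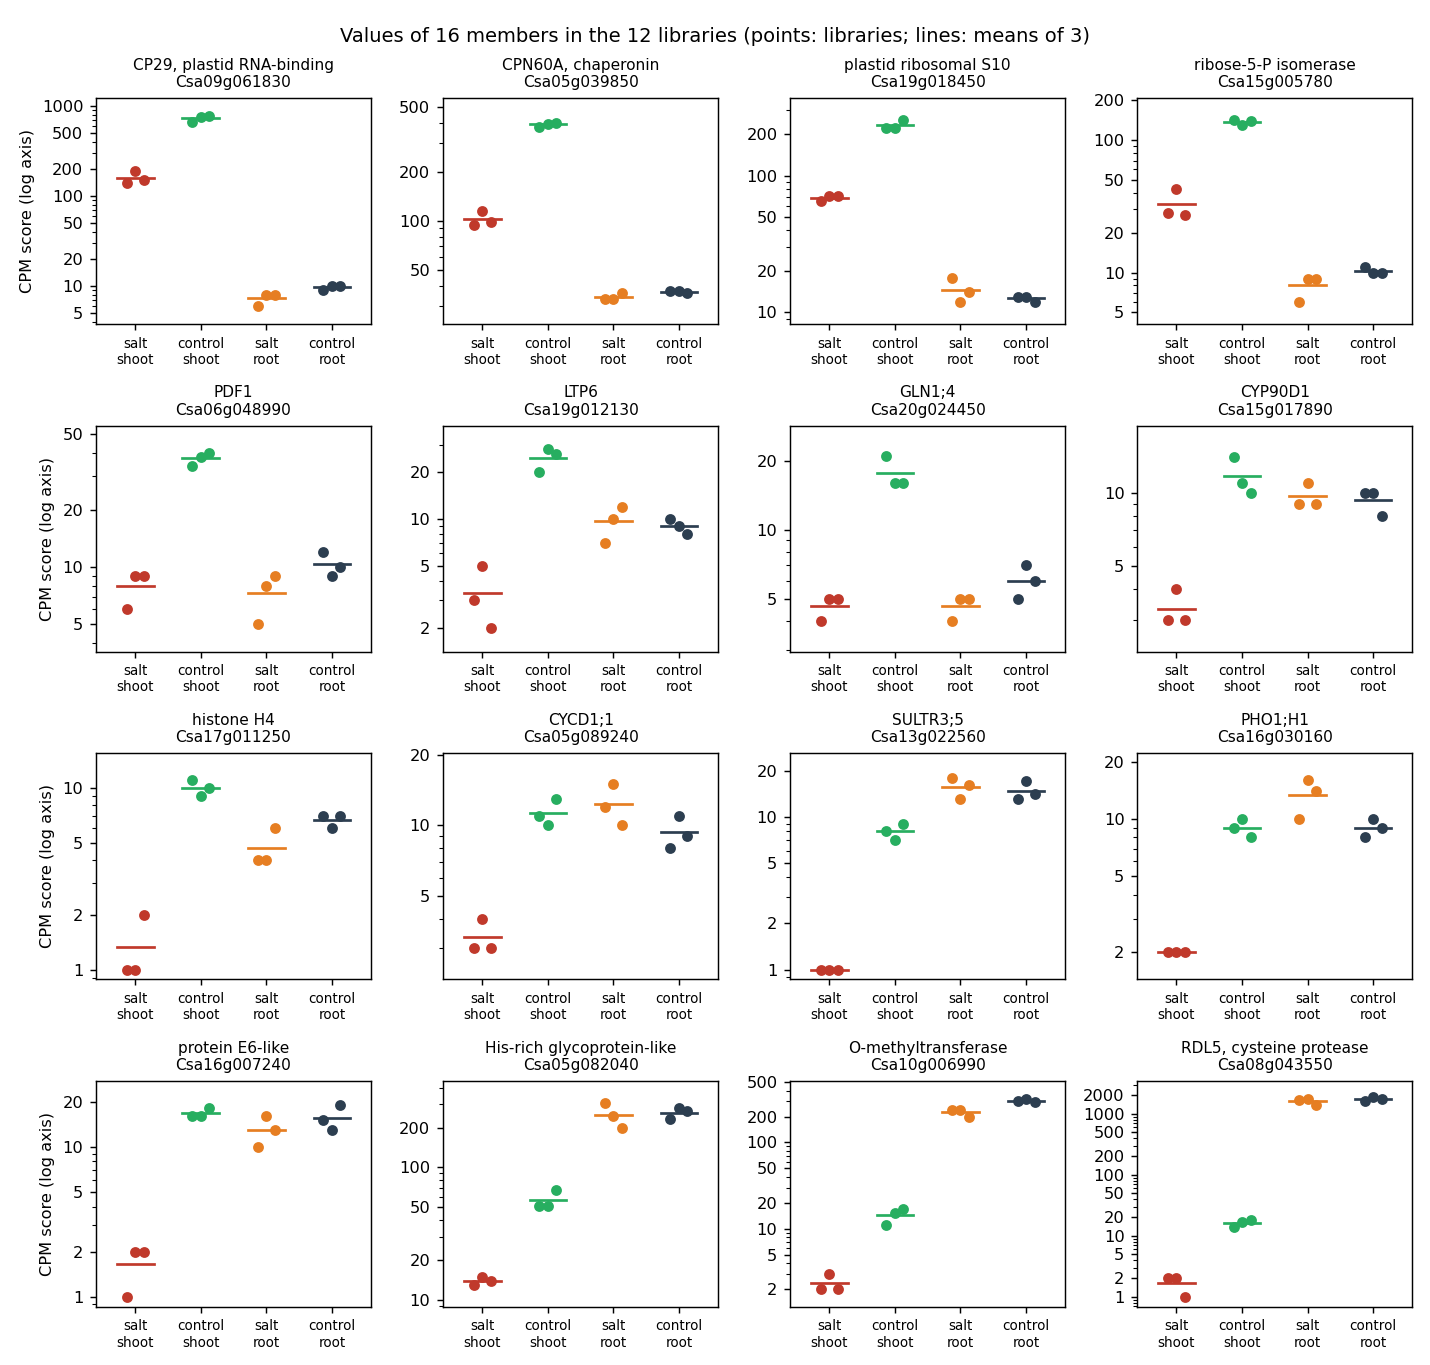
CPM scores of 16 members in the 12 libraries (log axes that differ between panels), with points for libraries and lines for means of 3. In every panel the salt-treated shoots (red) lie below the control shoots (green), while the root libraries (orange with salt, dark blue without) lie at a similar height, far below the shoots for CP29 and far above them for RDL5.

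Transport was the largest list among the named members outside the plastid, with 6 members and none called between the control organs, although both members of SULTR3;5 below were called higher in control roots when every library was scaled to the same total (log2 differences 1.13 and 1.05). Of 24 transport genes on the study's list, 9 were at the floor. The sulfate transporter SULTR3;5, known in Arabidopsis for sulfate movement from root to shoot, had 2 members. Csa13g022560 stood at 1, 1 and 1 in salt-treated shoots, against 8, 7 and 9 in control shoots, and at 18, 13 and 16 in salt-treated roots, against 13, 17 and 14 in control roots. Csa20g030350 stood at 2, 2 and 1 in salt-treated shoots, against 6, 6 and 6 in control shoots. Both were thus within a few units of the smallest step in salt-treated shoots, and the root libraries of the first overlapped.

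PHO1;H1, which loads phosphate into the xylem in Arabidopsis, also had 2 members. Csa05g085290 stood at 2, 2 and 1 in salt-treated shoots, against 9, 7 and 7 in control shoots, and Csa16g030160 at 2, 2 and 2, against 9, 10 and 8. In roots, Csa16g030160 was at 10, 16 and 14 with salt and 8, 10 and 9 without it, a ratio of 1.48 at the upper limit of the rule, and Csa05g085290 had a root ratio of 1.21. The auxin influx carrier gene LAX1 (Csa08g062880) was at 4, 5 and 6 in salt-treated shoots, against 19, 17 and 19 in control shoots, with a root ratio of 1.18. A MATE-family efflux transporter gene (Csa11g023310) had a shoot ratio of 0.311 and a root ratio of 0.97. The median of the 6 transport members was 0.247 in shoots and 1.12 in roots, beside 0.286 and 0.841 over all members and 0.97 and 0.967 over all genes at the floor.

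A further set of members acts at the plant surface. Lipid transfer protein LTP6 (Csa19g012130), of a family that moves lipids in the cell wall, stood at 3, 5 and 2 in salt-treated shoots, against 20, 28 and 26 in control shoots, and at 7, 10 and 12 in salt-treated roots, against 10, 9 and 8 in control roots. CYP86A8 (Csa05g003260), a fatty acid hydroxylase of cutin synthesis in Arabidopsis, had 4, 6 and 5 in salt-treated shoots, against 23, 21 and 17 in control shoots. Protodermal factor 1 (PDF1; Csa06g048990), a marker of the outermost cell layer of Arabidopsis shoots, had 6, 9 and 9, against 34, 38 and 40. In roots, CYP86A8 was at 4, 3 and 4 with salt, against 5, 5 and 5 without it (ratio 0.733). PDF1 was at 5, 8 and 9 in salt-treated roots, against 12, 9 and 10 in control roots (ratio 0.71). These 3 genes were called higher in control shoots, with log2 differences of -1.40, -1.91 and -1.81 (adjusted p = 0.00072, 8.35e-07 and 1.27e-05 in the limma fit).

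Plasmodesmata-located protein 3 (PDLP3; Csa05g023130), a receptor-like protein of the channels between cells, was at 6, 8 and 9 in salt-treated shoots, against 39, 37 and 37 in control shoots. IQ-domain 21 (Csa04g034690), of a family of calmodulin-binding proteins, was at 5, 7 and 5, against 23, 22 and 22, and the calcium-binding protein CML26 (Csa07g040830) was at 3, 6 and 3, against 21, 18 and 20. Their shoot ratios were 0.204, 0.254 and 0.203, and their root ratios of 0.722, 0.773 and 0.744 were all in the lower part of the root limits. PDLP3 and IQ-domain 21 were called higher in control shoots (log2 differences -1.06 and -1.55), and CML26 was not (-0.46, adjusted p = 0.105 in the limma fit). PDLP3 lost its call when every library was scaled to the same total (log2 difference -0.76) and when control root replicate 3 was left out (-0.94), in both cases because the difference was then under 1.

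Cell wall genes were represented by 2 copies of beta-xylosidase 2 (BXL2), which trims xylose from wall polysaccharides. Csa14g002670 stood at 18, 13 and 21 in salt-treated shoots, against 65, 57 and 60 in control shoots, and at 90, 59 and 66 in salt-treated roots, against 114, 110 and 82 in control roots. Csa17g001430 stood at 6, 4 and 5 in salt-treated shoots, against 23, 20 and 20 in control shoots. Neither was called between the control organs (log2 differences 0.73 and 0.85), but with every library scaled to the same total both were called higher in control roots (1.04 and 1.16), and Csa17g001430 was also called without control root replicate 1 (1.05). Of 27 cell wall genes on the study's list, 12 were at the floor and these 2 were within the root limits.

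Genes of chromatin and the cell cycle gave 4 members, since the histone gene is in both lists. Of 26 genes for DNA replication, histones and chromatin, 13 were at the floor and 1 was a member, a histone H4 gene (Csa17g011250) with 1, 1 and 2 in salt-treated shoots, against 11, 9 and 10 in control shoots, and 4, 4 and 6 in salt-treated roots, against 7, 6 and 7 in control roots. Of 16 genes for the cell cycle and cytoskeleton, 8 were at the floor and 4 were members. Among them the D-type cyclin gene CYCD1;1 (Csa05g089240), a regulator of entry into the cell cycle, was at 3, 4 and 3 in salt-treated shoots, against 11, 10 and 13 in control shoots, with a root ratio of 1.32. ROP interactive partner 3 (Csa05g016770), which links ROP GTPases to microtubules, was at 6, 9 and 7, against 23, 25 and 24. The list also took in the histone gene and, through a pattern in its name, the plastid ribosome recycling factor.

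The members related to hormones act in the brassinosteroid, cytokinin and auxin pathways. CYP90D1 (Csa15g017890), a hydroxylase of brassinosteroid synthesis, stood at 3, 4 and 3 in salt-treated shoots, against 14, 11 and 10 in control shoots, and at 9, 11 and 9 in salt-treated roots, against 10, 10 and 8 in control roots. ARR5 (Csa06g021740), a type-A response regulator that is induced by cytokinin in Arabidopsis, stood at 3, 4 and 3 in salt-treated shoots, against 9, 12 and 11 in control shoots. BEE2 (Csa12g004930), a basic helix-loop-helix factor induced by brassinosteroids in Arabidopsis, stood at 7, 11 and 10, against 33, 31 and 31. Of 15 genes for gibberellin, brassinosteroid and cytokinin on the study's list, 9 were at the floor and 2 were members, and of 8 auxin genes 4 were at the floor and 1, LAX1, was a member. BEE2 was called higher in control shoots (log2 difference -2.35), and CYP90D1 and ARR5 were not called (-0.30 and 0.93). ARR5 passed the threshold when every library was scaled to the same total (1.23) and without control root replicate 3 (1.11) or control shoot replicate 2 (1.02).

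The named members of primary metabolism included 1 gene of nitrogen and 1 of sugar metabolism. GLN1;4 (Csa20g024450), a cytosolic glutamine synthetase that fixes ammonium, stood at 4, 5 and 5 in salt-treated shoots, against 21, 16 and 16 in control shoots, and at 4, 5 and 5 in salt-treated roots, against 5, 7 and 6 in control roots. Salt-treated shoots thus held the same values as salt-treated roots, while control shoots were above control roots in each library (log2 difference of roots to shoots -1.48 ± 0.16 SE, adjusted p = 6.62e-06 in the limma fit). A trehalose-phosphate phosphatase gene, TPPH (Csa10g002590), stood at 2, 2 and 1 in salt-treated shoots, against 13, 14 and 12 in control shoots, with a root ratio of 1. TPPH was called higher in control shoots (log2 difference -1.24), but not when every library was scaled to the same total (-0.95). Of 9 genes of nucleotide metabolism on the study's list, 2 were at the floor and neither was a member.

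The counts of the other lists stand beside the share of 27.3% over all listed genes at the floor. Of 45 genes for cuticle, wax and lipid metabolism on the study's list, 8 were at the floor and 2 were members, and of 48 transcription factor genes 18 were at the floor and 4 were members, 2 of which are ARR5 and BEE2. The pattern for transcription factors also took in CP29 and the aspartyl protease, which are not known as such. Of 24 genes for receptor kinases and calcium signalling, 11 were at the floor and 3 were members. Protein folding had 15 genes, 6 at the floor and 4 members, photosynthesis and the Calvin cycle had 21 genes, 3 at the floor and 3 members, and plastid gene expression and import had 12 genes, 2 at the floor and 1 member. Epidermis and organ development had 9 genes, 3 at the floor and 1 member, which was PDF1.

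In 17 named members the name fell in none of the lists. Besides the RDL5 proteases, the O-methyltransferase, the defensin-like and the E6-like genes, a gene annotated only as a putative protein (Csa17g047310) was among the lowest ratios. It stood at 7, 6 and 4 in salt-treated shoots, against 34, 47 and 46 in control shoots, and at 22, 22 and 25 in salt-treated roots, against 17, 17 and 24 in control roots. Its shoot ratio was 0.134 and its root ratio 1.19. It was called higher in control shoots (log2 difference -1.11), but not when every library was scaled to the same total (-0.81).

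Copies of the same gene were compared, since the rule takes each copy on its own. For the 37 Arabidopsis orthologues of the named members, the study's shoot list held 20 further camelina genes at or below the shoot limit that were not members. Of these, 9 had a control root mean under 5, and the other 11 had a root ratio below 0.67. Among the 9, Csa14g054360, Csa11g002890 and Csa12g002670 also had root ratios below 0.67 (0.643, 0.2 and 0.571), and the rest were within the root limits. None of the 20 had a root ratio above 1.5. The shoot limit could not separate listed copies at the floor, since all 183 listed genes at the floor were within it. Copies not on the list were not examined. Among listed copies, the root limit separated some that stood close together. The members for PDF1 and PDLP3 had root ratios of 0.71 and 0.722, while a second copy of each on the list stood at 0.657 and 0.65. IQ-domain 21 had 1 member at 0.773 and further copies at 0.647 and 0.656. The gap was wider for CYP20-3, with 0.842 for the member and 0.429 for the other copy, and for CP29, with 0.759 and 0.591. All copies of CPN60A, SULTR3;5, PHO1;H1, RDL5 and E6-like on the list were members.

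**Figure D5:**
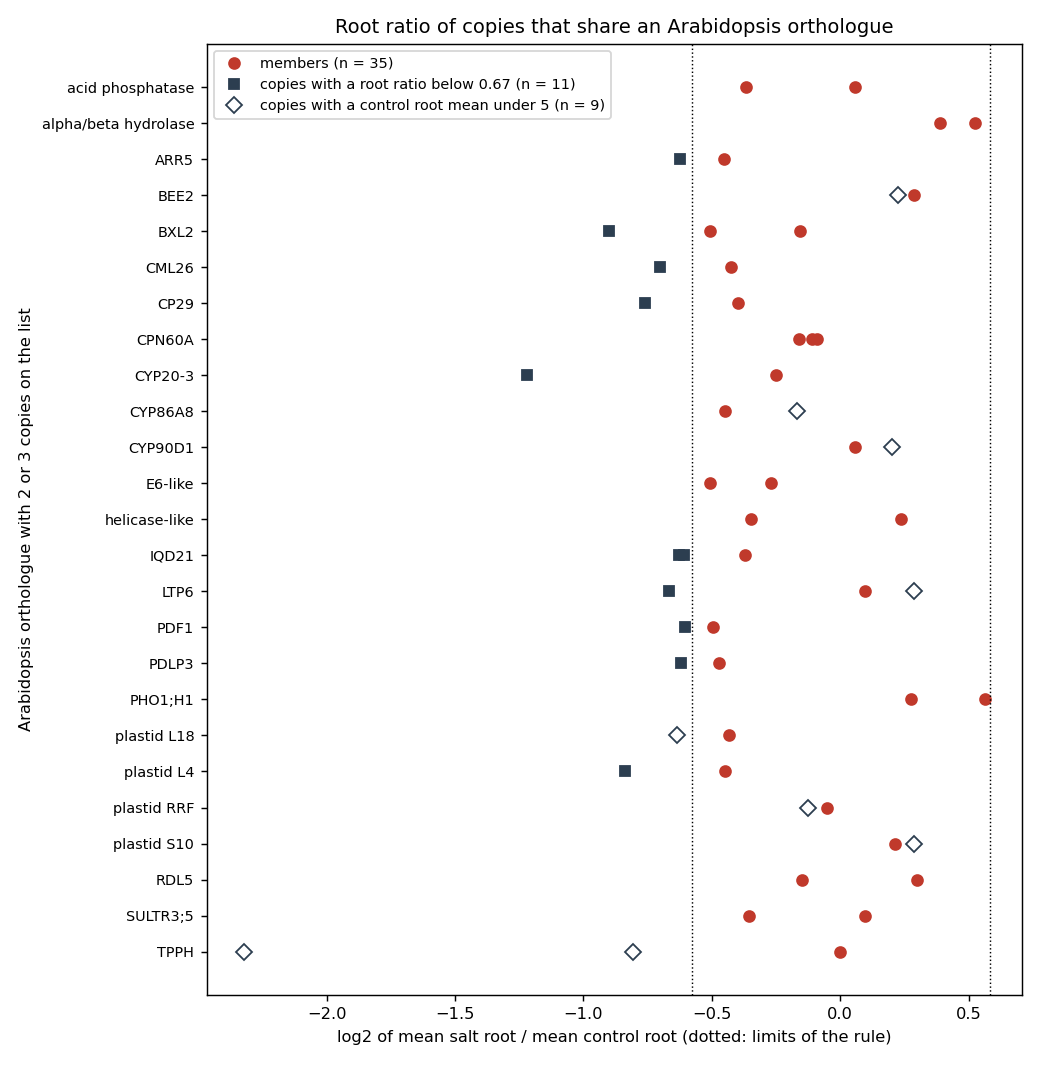
Log2 of the salt to control ratio of means in roots (x axis) for the camelina copies of 25 Arabidopsis orthologues that have 2 or 3 copies on the study's shoot list (y axis). The 35 members (red circles) lie between the dotted limits, and 11 copies (squares) lie to the left of them, several by a small margin. The 9 copies with a control root mean under 5 (open diamonds) lie partly within the limits and partly to the left.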

How the data were processed

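After trimming with Trimmomatic, the authors aligned reads to the C. sativa reference with STAR, turned counts into CPM through the library size and applied DESeq as a further normalization (versions not given in the sources). The deposited values are whole numbers, a score on the CPM scale. Library totals were 882288 to 1117956, the reads behind them are not given, and no count model was used.

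Control roots were compared with control shoots with limma 3.58.1 in R 4.3.3, on log2(score + 0.5), in 1 model of 4 groups over all 12 libraries with a variance trend, for 49928 genes at 1 or more in at least 3 libraries. On simulated data with a single noise level and changes well above the threshold, the fit recovered most of the known changes. Changes near the threshold were not simulated, and the noise level was taken from genes with higher scores. Groups came from the labels. For 3 libraries against 3, the smallest p of an exact permutation test is 0.1.

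Members, lists and tests were chosen with earlier results of these data known. Ratios were compared with the limits after rounding to 9 decimals, so that an exact ratio of 1 to 3 counts as within. Genes are named if the paper's text names them, if they are the lowest ratios of a list (with copies of the same orthologue), the lowest ratios or highest shoot levels, nearest the limits, or most different between control organs; genes without a name were limited to 2, plus 1 chosen after its values were seen. Lists are patterns in the annotation of the study's shoot-lowered sheet (774 identifiers, 598 in the table). Sub-genomes follow the chromosome number in the identifier, by general knowledge of the species. The sheet's fold changes were not used. Alternatives were other pseudocounts, filters, scalings, samples, limits of the rule and a replicate block.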

Additional observations from a re-analysis of the deposited data

How the results depend on the processing

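The 12 members called higher in control roots kept that call in all alternatives run, except that 11 of them did without control shoot replicate 2 and 11 without control shoot replicate 3. The count was 23 when libraries were scaled to the same total, where all genes called higher in roots made up 21.0% in place of 15.3%, and 11 to 15 when 1 library was left out. The count higher in control shoots was 30 to 34. Of the 50 named members, 35 kept their direction and call throughout. The log2 difference changed sign for 5 members that were not called. It was -0.04 for Csa04g067780 with median-of-ratios scaling, and -0.27 to 0.24 without 1 library. With equal totals it was 0.17 for Csa05g016770, 0.02 for Csa05g089240, 0.20 for Csa16g007240 and 0.29 for Csa16g030160. Without 1 library, Csa16g007240 was at -0.24 to 0.02 and Csa16g030160 at -0.08 to 0.08, and a pseudocount of 0.1 gave 0.00 for the last gene.

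The number of members was 44 with a floor of 10, 42 with a lower root limit of 0.8 and its inverse as the upper limit, 27 with a shoot ratio of at most 0.25, 120 with medians and 81 with median-of-ratios scaling. Leaving out 1 library gave 68 to 119 genes. The highest was without salt-treated shoot replicate 2 and shared 77 with the 82 members, and 40 members met the rule without any 1 library. The left-out share at or under 0.333 was 46.1% to 77.4%, lowest for replicate 2.

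The replicate numbers were not taken to pair the samples. Of 18 same-number pairs of libraries, 3 correlated by over 0.1, but most of the 18 join a salt-treated and a control library, which cannot share a plant. Control roots and control shoots of the same number correlated by 0.0273 to 0.0881, and salt-treated roots and shoots by 0.136, 0.346 and 0.0699. With unlike numbers the values were -0.103 to 0.0867 in control plants and -0.32 to 0.156 in salt-treated plants. Whether roots and shoots of a number share plants is not settled by so few pairs. A replicate block gave 12 members higher in control roots and 34 higher in control shoots. Values under about 5 rest on few steps of 1, and the depth behind them is not known.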
